A study of Mus musculus with 2 samples.

Results

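Endothelial cells were chosen by their own transcripts from single-cell RNA sequencing of MC38 tumors. A cell was taken as endothelial when it held at least 2 unique molecular identifiers (UMIs, each standing for 1 captured transcript) of Cdh5 and Cldn5 together and at least 1 of Pecam1, with Col1a2 and Dcn under 0.1% of its UMIs and the immune genes Ptprc, Tyrobp, Fcer1g and Cd3e under 0.05%. This gate selected 125 of the 28002 cells that passed the quality filter. There were 58 in the untreated library and 67 in the MSA-2 library.

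MC38 is a mouse colon carcinoma line, grown here as subcutaneous tumors in C57BL/6 mice aged 6 to 8 weeks, and MSA-2 is a small-molecule agonist of STING, a sensor of cyclic dinucleotides. MSA-2, or saline holding 10% DMSO, was injected into the tumor every 3 days for 3 doses, and tumors were taken on day 7. The group that received the vehicle is labelled untreated and is called so here. Tumors of 3 mice were pooled, and each condition gave 1 library, so the spread between tumors is unknown and no test between the conditions was possible. The intervals below are exact 95% intervals that cover counting error only.

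Endothelial cells line the blood and lymphatic vessels. At the front of a growing vessel, tip cells follow VEGF and express genes such as Esm1 and Apln, whereas the endothelium of small veins displays selectins and adhesion molecules that let leukocytes leave the blood. Endothelial cells hold STING and respond to type I interferon, which switches on antiviral genes.

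The 58 untreated cells held 762174 UMIs and the 67 MSA-2 cells 861011. Their depth was alike, with medians of 9868.5 and 9519 UMIs and of 3354.5 and 3199 detected genes per cell. No endothelial barcode of one library occurred among the endothelial barcodes of the other, although 53 barcodes were shared by the deposited libraries. Just inside the threshold, with 2 UMIs of Cdh5 and Cldn5, lay 3 cells of each library, and just outside, with 1 UMI, lay 9 untreated and 10 MSA-2 cells. The ceilings acted unequally. They removed 6 untreated and 17 MSA-2 cells, and 11 of the MSA-2 cells but 0 of the untreated cells were over the ceiling for Col1a2 and Dcn.

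The label was checked on genes that the gate did not use. All 30 genes of a list of other endothelial genes had at least 20 UMIs, and their summed level was 12205 CPM (UMIs per 1000000 UMIs of the summed cells) in untreated and 11045 in MSA-2 cells. Emcn, a sialomucin of capillaries and veins, stood at 895 CPM in untreated endothelial cells and 0.721 CPM in all other kept cells. Plvap, which forms the diaphragms of fenestrae and caveolae, stood at 757 and 0.711 CPM, and Gpihbp1, which carries lipoprotein lipase across capillary endothelium, at 1176 and 0.975 CPM. Some of the 10 genes that led most over other kept cells in the untreated library differed between the libraries. Tmem252 stood at 272 in untreated and 1217 CPM in MSA-2 endothelial cells (4.48-fold higher). Stc1, which encodes a stanniocalcin, stood at 236 and 97.6 CPM (2.42-fold lower), and Esm1 was lower too. The lymphatic markers Ccl21a and Mmrn1 came from a single untreated cell, with 37 and 21 UMIs, and had no UMI in MSA-2 cells. Xist had 0 UMIs in either library. A count of 0 was read throughout as a limit of 3 counts, which here allows up to 3.94 in untreated and 3.48 CPM in MSA-2 cells, while the Y-linked gene Ddx3y had UMIs in 24 and 23 cells.

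Endothelial cells made up 0.413% of kept untreated cells (Clopper-Pearson interval 0.314% to 0.534%) and 0.480% of kept MSA-2 cells (0.372% to 0.609%). The intervals overlapped, so a difference in the share of kept cells was not detectable at this depth. The methods describe the sequenced cells as sorted and as immune cells, and the part of the sort in these shares was not tested. The log2 ratio of the shares was 0.22 (interval -0.31 to 0.75). Over non-immune cells alone the shares were 0.802% and 0.809%. When the ceilings were dropped, 64 and 84 cells were gated, a share of 0.456% and 0.602%. When cells were gated after thinning to 1500 UMIs, 16 of 13413 and 27 of 12584 passed, a log2 ratio of 0.85 (interval -0.10 to 1.84). The result depended on the denominator. Per remaining non-immune cell, a group chosen after the data had been seen, the counts were 58 per 5484 in untreated and 67 per 3058 in MSA-2 tumors. Their log2 ratio was 1.05 (interval 0.52 to 1.58).

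Genes with at least 20 UMIs in both sums together numbered 7864. Of these, 438 (5.57%) were at least 2-fold higher in MSA-2 than in untreated endothelial cells and 582 (7.40%) were at least 2-fold lower, as shown in the plot of all genes. The median log2 ratio over all of them was -0.18. Scaling with edgeR's TMM factors added 0.17 to every log2 ratio and turned the split to 561 higher and 407 lower. Ratios below are on total UMIs, and small ones are read against that median.

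**Figure D1:**
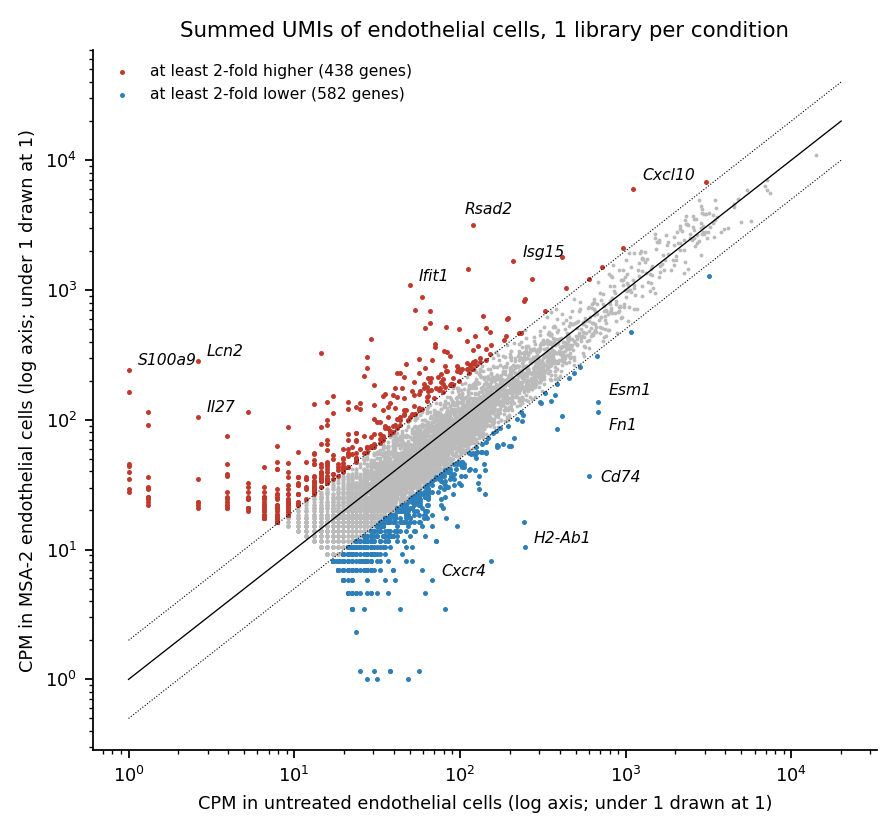
Each point is 1 of 7864 genes, with CPM in untreated endothelial cells on the x axis and CPM in MSA-2 endothelial cells on the y axis, both on log axes. Red points are the 438 genes at least 2-fold higher and blue points the 582 genes at least 2-fold lower; Rsad2 lies far above the line of equal level and Cd74 far below it.

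Interferon-stimulated genes were higher in MSA-2 endothelial cells as a group. All 46 genes of the list were measured, 46 had a log2 ratio above 0 and 38 were at least 2-fold higher, against 5.57% of all genes. The median log2 ratio was 1.69, and the summed level was 9825 in untreated and 30043 CPM in MSA-2 cells.

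Rsad2, which encodes the antiviral enzyme viperin, had 92 UMIs in untreated and 2720 in MSA-2 cells and was 26.2-fold higher (log2 ratio 4.71, interval 4.41 to 5.03). Ifit1, whose product binds foreign RNA caps, was 21.9-fold higher, and Isg15, a ubiquitin-like modifier, stood at 210 and 1669 CPM. Rsad2 and Isg15 had UMIs in all 67 MSA-2 endothelial cells. Ifih1, a sensor of double-stranded RNA, was 8.50-fold higher and Irf7, a transcription factor of the interferon response, 4.56-fold higher. Not every member differed by as much. Ly6a was already at 1672 CPM in untreated cells and stood at 1850 CPM in MSA-2 cells.

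The difference was spread over the cells. In single cells the interferon-stimulated genes took a median of 95.1 of 10000 UMIs in untreated and 328 in MSA-2 cells. Of the 67 MSA-2 cells, 57 lay above the highest untreated cell, and 0 of the 58 untreated cells lay above the median MSA-2 cell. After each cell was thinned to 1500 UMIs, Rsad2 was detected in 5 of 57 untreated and 64 of 67 MSA-2 cells (8.77% and 95.5%).

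**Figure D2:**
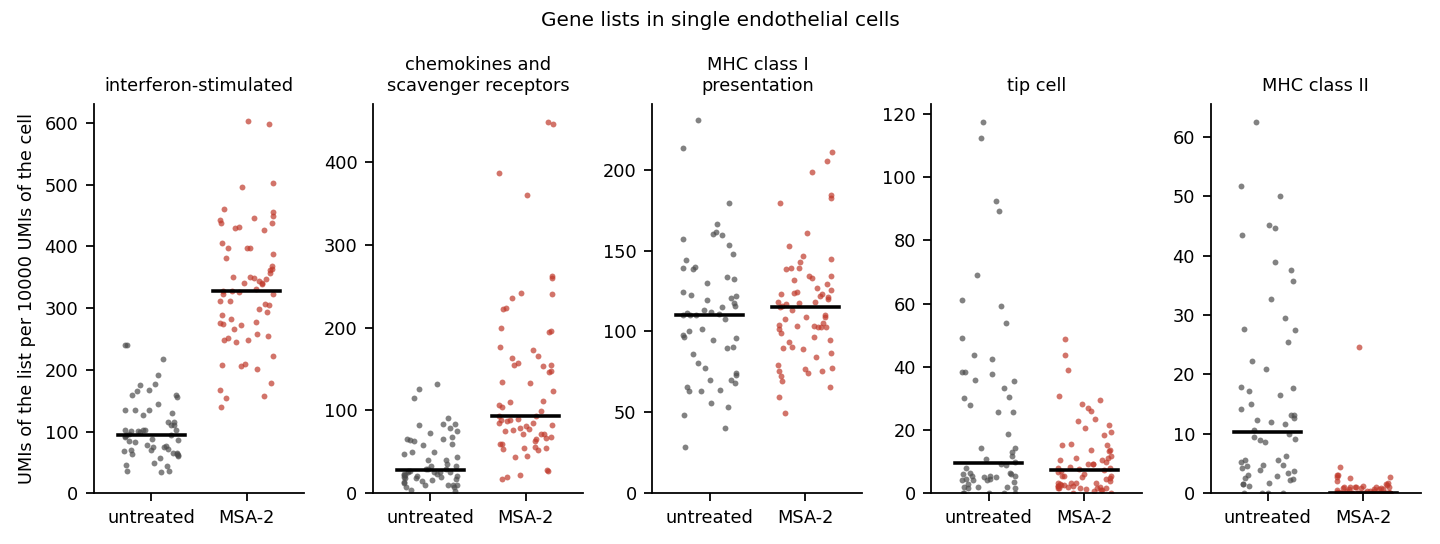
Each point is 1 endothelial cell (58 untreated in gray, 67 MSA-2 in red), the y axis gives the UMIs of a gene list per 10000 UMIs of the cell, and black bars mark medians. The median of interferon-stimulated genes is 95.1 in untreated and 328 in MSA-2 cells, while that of MHC class I presentation is 110 and 115.

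The same genes were read in the remaining non-immune cells of each library, which held no UMI of Cdh5, Cldn5 or Pecam1 and lay under both ceilings (5484 untreated and 3058 MSA-2 cells at a median of 20492 and 20640 UMIs). This group was chosen after the data had been seen. Of 1000 such cells of each library, thinned in the same way, 19.4% in untreated and 56.9% in MSA-2 tumors held Rsad2. Over all these cells, Rsad2 had a log2 ratio of 2.49 and Isg15 of 0.90, against 4.71 and 2.99 in endothelial cells. In untreated tumors Rsad2 stood lower in endothelial cells (121 CPM) than in those cells (188 CPM), and in MSA-2 tumors it stood higher (3159 and 1057 CPM). The plot of named genes in both groups of cells gives these ratios side by side.

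**Figure D3:**
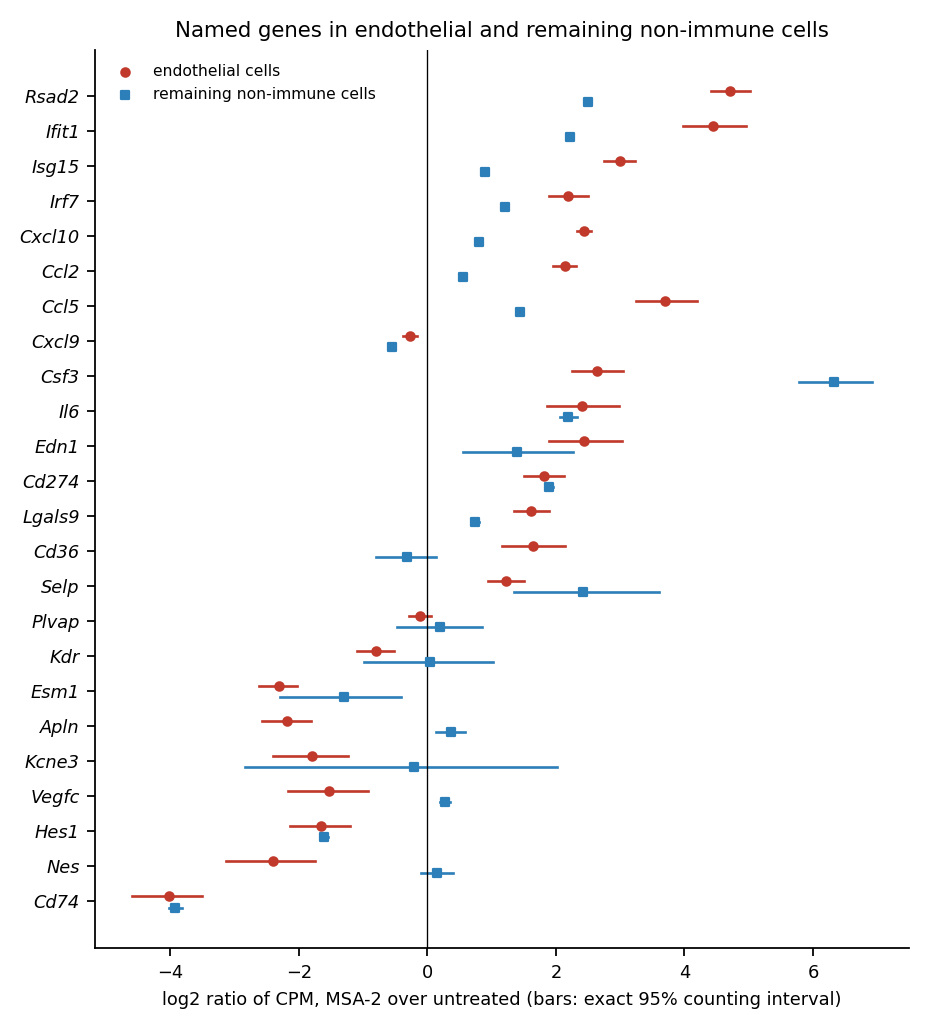
Log2 ratios of CPM, MSA-2 over untreated, on the x axis for named genes in endothelial cells (red circles) and in remaining non-immune cells (blue squares), with exact 95% counting intervals as bars. Rsad2 lies at 4.71 in endothelial and 2.49 in remaining non-immune cells, and Apln at -2.18 and 0.36.

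The promoters of these genes were searched on both strands for GAAANNGAA, a short form of the interferon-stimulated response element. The list was made of interferon-stimulated genes, so a share above that of all genes is no result of these data. RefSeq promoters (250 bases before to 50 after the gene start, GRCm38.p6) were matched for 35 of the 46 genes. The letters were found in 19 of the 35 (54.3%) and in 2638 of 27025 genes overall (9.76%). Among the genes of the list at least 2-fold higher they were found in 17 of 30, and among those under 2-fold in 2 of 5. A form of the NF-kB site, GGANNTTCC, was found in 4 of the 35 (11.4%) and in 4.86% of all genes, and no match of one overlapped a match of the other in the list. GAAANNGAA occurred in 5 of 17 promoters of MHC class I presentation genes and in 2 of 12 of leukocyte adhesion genes. For GGANNTTCC the counts were 1 of 17 and 3 of 12. A match describes the letters of the window and is not a binding site.

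Shown 5′ to 3′ are the windows of the 3 genes with the highest ratios in the list that held GAAANNGAA, and of the chemokine gene Cxcl10. Capitals mark matches of GAAANNGAA on either strand, and matches of GGANNTTCC are not marked. They lie at chr12:26456403-26456702 on the minus strand (Rsad2), chr19:34607707-34608006 on the plus strand (Ifit3b), chr19:34640639-34640938 on the plus strand (Ifit1) and chr5:92348840-92349139 on the minus strand (Cxcl10).
Rsad2: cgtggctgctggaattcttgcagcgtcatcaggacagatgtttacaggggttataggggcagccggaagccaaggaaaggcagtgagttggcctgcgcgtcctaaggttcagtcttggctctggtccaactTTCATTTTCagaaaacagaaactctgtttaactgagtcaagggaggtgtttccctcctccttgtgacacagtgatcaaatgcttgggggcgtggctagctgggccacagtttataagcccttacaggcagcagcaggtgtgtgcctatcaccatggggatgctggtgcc
Ifit3b: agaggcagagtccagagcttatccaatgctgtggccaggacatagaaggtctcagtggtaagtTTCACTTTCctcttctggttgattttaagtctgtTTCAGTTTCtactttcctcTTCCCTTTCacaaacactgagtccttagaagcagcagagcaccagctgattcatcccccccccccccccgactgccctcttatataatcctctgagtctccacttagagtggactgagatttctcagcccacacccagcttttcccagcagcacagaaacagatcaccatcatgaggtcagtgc
Ifit1: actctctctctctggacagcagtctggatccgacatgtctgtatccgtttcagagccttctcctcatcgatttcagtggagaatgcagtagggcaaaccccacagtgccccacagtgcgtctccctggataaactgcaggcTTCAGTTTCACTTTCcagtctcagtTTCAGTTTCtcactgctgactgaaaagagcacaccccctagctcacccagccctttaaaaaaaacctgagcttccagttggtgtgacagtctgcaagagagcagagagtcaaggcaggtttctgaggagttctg
Cxcl10: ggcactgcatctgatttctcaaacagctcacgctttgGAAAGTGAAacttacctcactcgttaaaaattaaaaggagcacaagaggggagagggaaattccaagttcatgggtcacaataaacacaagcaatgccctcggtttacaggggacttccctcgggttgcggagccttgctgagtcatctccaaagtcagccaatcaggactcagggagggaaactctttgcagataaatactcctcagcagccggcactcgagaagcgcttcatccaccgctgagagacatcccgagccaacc
Ifit1 and Ifit3b each held 3 matches of GAAANNGAA, with the matches nearest to the gene start beginning 84 and 134 bases before it. Rsad2 held 1 match of GAAANNGAA at 119 bases and Cxcl10 1 such match at 213 bases before the start.

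In the list of chemokines and their scavenger receptors, 10 of 15 measured genes were at least 2-fold higher in MSA-2 endothelial cells, among them the receptor Ackr1, against 5.57% of all genes. With equal weight per cell the log2 ratio of Ackr1 was 0.77 and that of Cxcl1 0.82, and Ccl7 had one of 0.23 when 1 UMI of Cdh5 and Cldn5 was enough for the gate. The chemokine Cxcl12 was 2.06-fold lower (log2 ratio -1.04, and -0.87 with TMM factors). The median log2 ratio of the list was 1.25. The median was 4.33 over the 6 members measured in the cells with no UMI of the fibroblast and immune genes. There the whole list had 19 untreated and 769 MSA-2 UMIs, so no member could reach 20 UMIs from untreated cells alone. The filter thus favored a high median, and the value of 4.33 does not test the direction. Cxcl10, which draws T cells and NK cells through CXCR3, stood at 1109 in untreated and 6002 CPM in MSA-2 cells (5.41-fold higher). Ccl2, a monocyte chemoattractant, was 4.40-fold higher. Ccl5 was 13.0-fold higher, with 206 of its 602 UMIs in 1 MSA-2 cell, and without the cell of each library that held most its log2 ratio was 3.22. Cxcl9, another ligand of CXCR3, did not follow them. It stood at 1716 in untreated and 1422 CPM in MSA-2 endothelial cells, above the 167 and 114 CPM of remaining non-immune cells.

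Several of these chemokines were as abundant in other cells. Ccl2 stood at 1807 CPM in MSA-2 endothelial cells and 1754 CPM in remaining non-immune cells, and Cxcl1 at 1040 and 2672 CPM. Cxcl2 stood at 511 and 554 CPM. The part of RNA from other cells in the ratios of these genes was not tested. Cxcl10 was more abundant in endothelial cells (6002 against 4136 CPM).

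In the list of cytokines and growth factors, 8 of 13 measured genes were at least 2-fold higher and 0 at least 2-fold lower, against 5.57% and 7.40% of all genes, with a median log2 ratio of 1.33. Edn1, which encodes the vasoconstrictor endothelin 1, stood at 42.0 and 228 CPM, and remaining non-immune cells held 0.173 and 0.454 CPM. Il6 was 5.28-fold higher, at 229 CPM in MSA-2 endothelial cells and 521 CPM in collagen-high cells (Col1a2 and Dcn at least 0.5% of UMIs, a gate added after the data had been seen). Csf3, the growth factor of neutrophils, was 6.22-fold higher, but 172 of its 443 UMIs lay in 1 MSA-2 cell, and without the highest cell of each library its log2 ratio was 2.91. Il15 and Csf1 were 2.58-fold and 2.51-fold higher. Ifnb1, which encodes interferon beta, had the highest ratio of the measured members but few UMIs, with 3 in untreated and 24 in MSA-2 cells. It is counted among the 8, although only its MSA-2 UMIs brought it to 20. After thinning it was detected in 2 of 57 untreated and 0 of 67 MSA-2 cells (which allows up to 4.48%), so no difference is read from it; in remaining non-immune cells the shares were 0.3% and 3.4%. Over the 5 untreated and 8 MSA-2 cells with no UMI of the fibroblast and immune genes, the list's median was -2.43, from Kitl, the 1 member that reached 20 UMIs there. Outside the list, Il27, a subunit gene of interleukin 27, had 2 UMIs in untreated and 91 in MSA-2 cells, and was 40.3-fold higher (log2 interval 3.44 to 8.40).

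Of 5 measured genes of the checkpoint list, 3 were at least 2-fold higher, against 5.57% of all genes. Cd274, which encodes PD-L1, stood at 144 in untreated and 505 CPM in MSA-2 endothelial cells (3.50-fold higher), and was detected after thinning in 11 of 57 and 35 of 67 cells (19.3% and 52.2%), against 8.3% and 21.2% of remaining non-immune cells. Lgals9, encoding galectin 9, was 3.07-fold higher. Ido1, the tryptophan-degrading enzyme, had 3 and 2 UMIs, so a difference was not detectable.

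The genes of antigen presentation by MHC class I differed little. Of 19 measured genes, 1 was at least 2-fold higher and 0 at least 2-fold lower, and the first count is near the 5.57% of all genes. Their median log2 ratio was 0.09, and their summed level was 10601 in untreated and 10586 CPM in MSA-2 cells. H2-K1, a class I heavy chain, stood at 2919 and 3117 CPM and B2m, the light chain, at 2249 and 2014 CPM. The 1 gene past 2-fold was Nlrc5, the transactivator of class I genes, which was 2.05-fold higher (log2 ratio 1.04). Its log2 ratio was 0.87 without the ceilings, 0.92 with 10 CPM added and 0.99 without cells with 10 mural or lymphatic UMIs, an alternative chosen after the data had been seen. The interferon-gamma type GTPases had a median of 0.39, with 3 of 16 genes at least 2-fold higher and 1 at least 2-fold lower, against 5.57% and 7.40% of all genes. The gene lower was Irf8, a transcription factor, with a log2 ratio of -1.12, which was -0.95 with TMM factors. Irf1 had a log2 ratio of -0.52.

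MHC class II genes were lower. All 6 measured members were at least 2-fold lower in MSA-2 cells, against 7.40% of all genes, with a median log2 ratio of -4.14. Cd74, the invariant chain, had 461 and 32 UMIs (605 and 37.2 CPM), and H2-Ab1, a class II beta chain, 188 and 9 UMIs. Remaining non-immune cells held Cd74 at 166 CPM in untreated tumors, and its log2 ratio there was -3.92, close to the -4.02 of endothelial cells. In untreated endothelial cells Cd74 was 3.63 times and H2-Ab1 2.53 times their level in those cells, whereas the macrophage gene Apoe stood at 413 and 406 CPM and C1qa at 131 and 128 CPM. All of these genes were lower in the MSA-2 library, and the part of macrophage RNA in the lower class II values was not tested.

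**Figure D4:**
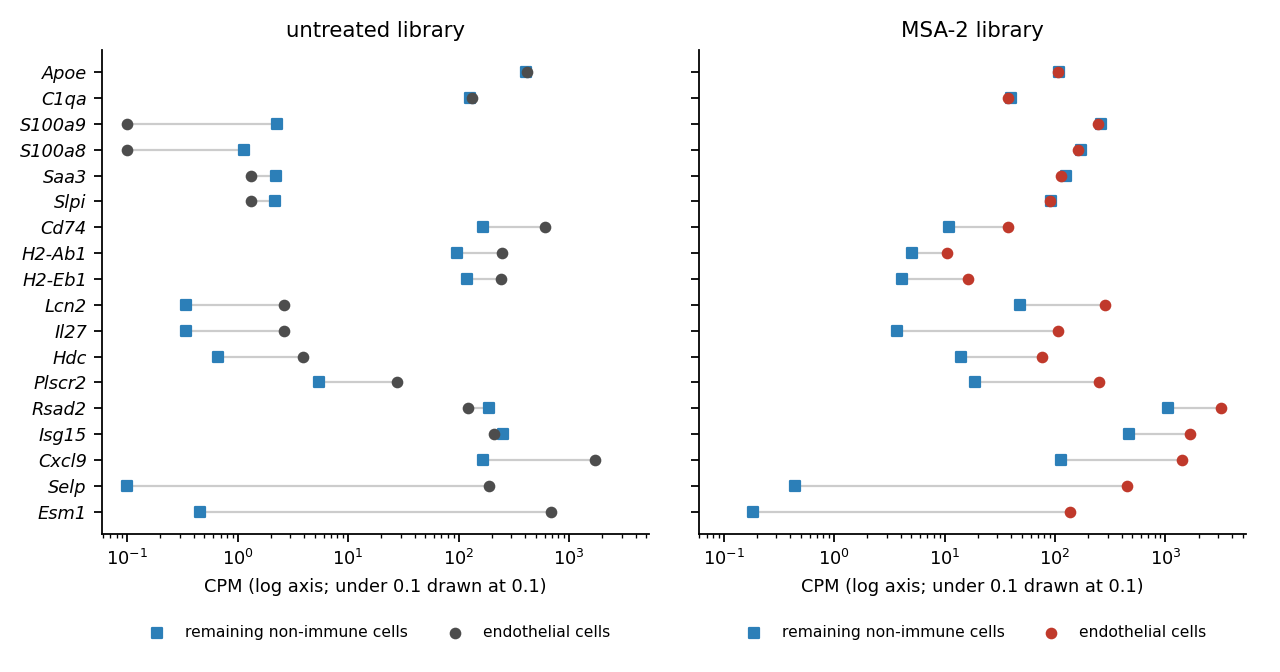
CPM on a log x axis of genes in endothelial cells (circles, gray for untreated and red for MSA-2) and in remaining non-immune cells of the same library (blue squares). Apoe, C1qa and, in the MSA-2 library, S100a9 and S100a8 are at about the same level in both, while Cd74, Il27, Plscr2 and Selp are higher in endothelial cells.

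Genes of sprouting endothelium were lower. In the tip cell list, 6 of 10 measured genes were at least 2-fold lower and 0 at least 2-fold higher, against 7.40% and 5.57% of all genes. The median log2 ratio was -1.57, and the summed level was 2203 in untreated and 948 CPM in MSA-2 cells. Esm1, which encodes the secreted proteoglycan endocan, stood at 681 in untreated and 137 CPM in MSA-2 cells (4.97-fold lower). Apln, encoding the ligand of the apelin receptor, was 4.53-fold lower. Cxcr4, a chemokine receptor of tip cells, was 11.7-fold lower, with 52 and 5 UMIs. Not all tip cell genes were lower. Angpt2, an antagonist of the Tie2 receptor, had a log2 ratio of -0.15 and Pdgfb, which recruits pericytes, of 0.05.

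The highest levels in single cells were lower in the MSA-2 library. The upper quartile of tip cell genes was 35.8 of 10000 UMIs in untreated and 14.5 in MSA-2 cells, with medians of 9.55 and 7.21. Cells with at least 2 tip cell genes after thinning were 25 of 57 in untreated (43.9%, interval 30.7% to 57.6%) and 18 of 67 in MSA-2 cells (26.9%, 16.8% to 39.1%). These intervals overlapped. Without thinning the shares were 81.0% and 77.6%, and in remaining non-immune cells 0 of 1000 (which allows up to 0.3%) and 2 of 1000 thinned cells passed the same gate.

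Genes around the VEGF and Notch pathways were lower too, but these lists share members with others and are not separate support. Angpt2 and Pgf are in both the tip cell and the VEGF lists, and Nid2 in the tip cell and basement membrane lists. The arterial list shares Vegfc with the VEGF list, and Hey1 and Efnb2 with the Notch list. The median log2 ratio of 13 VEGF and angiopoietin genes was -0.52, against -0.18 over all genes. Of the 13 genes, 12 had a log2 ratio below 0 and 3 were at least 2-fold lower, against 7.40% of all genes. One of these, Flt4, the receptor of Vegfc, had a log2 ratio of -1.06, which was -0.89 with TMM factors and -0.75 without cells with 10 mural or lymphatic UMIs. Vegfc, the lymphatic growth factor, was 2.89-fold lower. Kdr, the main VEGF receptor, had a log2 ratio of -0.80 (interval -1.09 to -0.52) and Flt1, a VEGF receptor that binds without strong signaling, of -0.52. Of 16 Notch and BMP genes, 5 were at least 2-fold lower, against 7.40% of all genes, among them Hes1 and Hey1, targets of Notch, at log2 ratios of -1.66 and -1.52. Hes1 was also lower in remaining non-immune cells, with a log2 ratio of -1.61. In the basement membrane list, 4 of 17 genes were at least 2-fold lower, including Lama4, a laminin chain of vessels, at 375 and 156 CPM, against 7.40% of all genes, and the median was -0.48. Sparcl1, another of them, had a log2 ratio of -1.12, which was -0.95 with TMM factors and -0.94 without cells that held mural genes.

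Vein-type genes leaned the other way, with a median log2 ratio of 0.74 and 4 of 10 genes at least 2-fold higher, against 5.57% of all genes. Selp, encoding P-selectin, which catches rolling leukocytes, stood at 190 and 445 CPM, with UMIs in 12 untreated and 28 MSA-2 cells. Ackr1, a scavenger receptor of chemokines on venules, was 3.54-fold higher, and Lrg1 and Aplnr were 2.22-fold and 2.20-fold higher. These 4 genes fell under 2-fold when every cell had equal weight, with log2 ratios of 0.27 for Selp, 0.77 for Ackr1, 0.64 for Lrg1 and 0.52 for Aplnr. The wider list of leukocyte adhesion had a median of 0.23. Of its 17 measured genes, 1 (Selp) was at least 2-fold higher and 0 at least 2-fold lower, against 5.57% and 7.40% of all genes. Icam1 and Vcam1 had log2 ratios of 0.76 and 0.52 and Sele, encoding E-selectin, of -0.47.

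Of 8 measured arterial genes, 6 had a log2 ratio below 0 and 4 were at least 2-fold lower, against a median of -0.18 and a share of 7.40% over all genes. Among the 4 was the gap junction gene Gja4 (3.55-fold lower). Gja5, another gap junction gene, had 2 and 18 UMIs, but 15 of the 18 lay in 1 MSA-2 cell. Of 7 measured capillary genes, 2 were at least 2-fold higher and 1 at least 2-fold lower, against 5.57% and 7.40% of all genes. Their median log2 ratio was 0.15. Car4, a carbonic anhydrase, had 13 and 97 UMIs and the highest log2 ratio of the list, 2.72, with 10 and 30 of these UMIs in 1 cell of each library. Without those cells its log2 ratio was 4.34, and without the deepest 5 cells of each library it was 1.41. Btnl9, named after its value was seen, was the 1 gene at least 2-fold lower, with 16 and 6 UMIs (log2 ratio -1.59, and -0.87 with 10 CPM added). Cd36, a fatty acid transporter, was 3.12-fold higher and Fabp4, a fatty acid binding protein, had a log2 ratio of 0.53, whereas Gpihbp1 had one of -0.72. Thinned cells with at least 3 cell cycle genes were 4 of 57 and 4 of 67, against 17.6% and 20.5% of remaining non-immune cells.

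**Figure D5:**
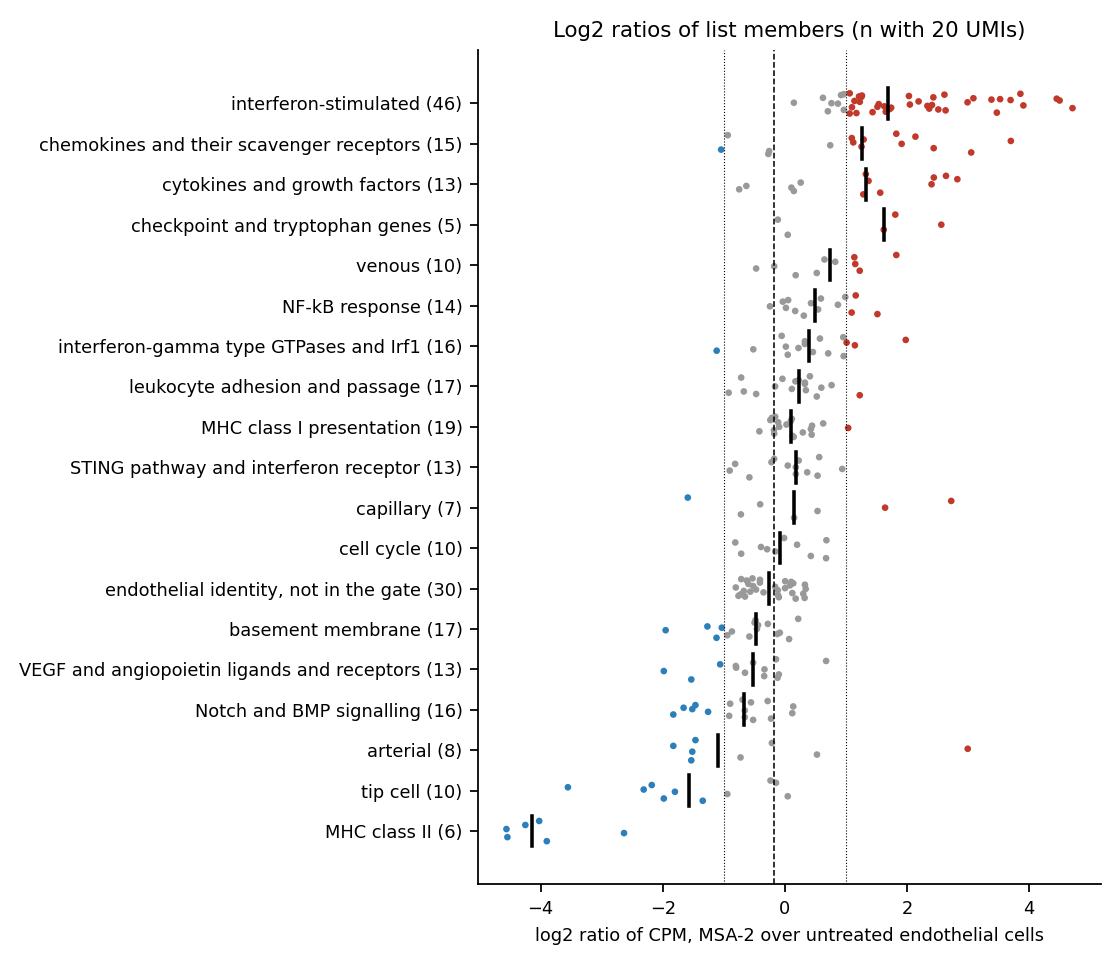
Log2 ratios of CPM, MSA-2 over untreated endothelial cells, on the x axis for the members of each gene list, with the number of members in brackets, black bars at list medians, dotted lines at 2-fold and a dashed line at the median of all genes (-0.18). Medians run from 1.69 for interferon-stimulated genes to -1.57 for tip cell and -4.14 for MHC class II genes.

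The endothelial identity genes outside the gate differed little. Of 30 genes, 0 were at least 2-fold apart, whereas 5.57% of all genes were higher and 7.40% lower by that much. The median log2 ratio was -0.26, near the -0.18 of all genes. With TMM factors this median was -0.08, and without the ceilings of the gate it was -0.70; the cause was not tested. Among genes of the STING pathway and the interferon receptors, 13 were measured and 0 were at least 2-fold apart, where the shares of all genes were 5.57% higher and 7.40% lower. Tmem173, which encodes STING, had 44 and 72 UMIs and a log2 ratio of 0.53 (interval -0.03 to 1.11). In the NF-kB list, 3 of 14 genes were at least 2-fold higher, against 5.57% of all genes, and the median was 0.49. One of these, Tnfaip3, an inhibitor of NF-kB, had a log2 ratio of 1.09. That ratio was 0.49 with equal weight per cell and 0.84 without cells that held mural genes. It was 0.90 without the deepest 5 cells of each library and 0.97 without called doublets. Over the 5 untreated and 8 MSA-2 cells with no UMI of the fibroblast and immune genes it reversed to -0.40.

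The 10 genes with the highest ratios, among genes that reached 50 CPM in 1 of the libraries and 50 UMIs over the pair, were Lcn2, Saa3, Slpi, S100a9, S100a8, Il27, Rsad2, Ifit3b, Acod1 and Ifit1. Among them were genes of neutrophils. S100a9 had 0 UMIs in untreated and 209 in MSA-2 endothelial cells, at least 61.7-fold higher. It stood at 243 CPM in MSA-2 endothelial cells and 262 CPM in remaining non-immune cells. The neutrophil list, whose most abundant gene was S100a9, was at 7.87 in untreated and 564 CPM in MSA-2 endothelial cells, with 1 of its 10 genes at 0 and 158 of its 486 MSA-2 UMIs in 1 cell, and at 9.34 and 596 CPM in remaining non-immune cells. The part of neutrophil RNA in these ratios was not tested. Lcn2, encoding the iron-carrying lipocalin 2, differed from S100a9, since it stood at 286 CPM in MSA-2 endothelial cells and 48.5 CPM in remaining non-immune cells. Collagen-high cells held it at 1035 CPM, and neutrophils were not gated.

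The 10 lowest were H2-Ab1, H2-DMb1, H2-Aa, Cd74, H2-Eb1, C1qc, Cxcr4, Kcnj2, Cst6 and Nnmt. C1qc is a macrophage gene, and without the ceilings its log2 ratio was -0.99 and that of C1qa -0.66. The macrophage list, most abundant in Apoe and with 0 of 10 genes at 0, was at 794 in untreated and 222 CPM in MSA-2 endothelial cells and at 808 and 241 CPM in remaining non-immune cells. The mural list, most abundant in Abcc9, was at 214 and 61.6 CPM, with 61 of its 163 untreated UMIs in 1 cell and 43 Rgs5 UMIs in 3 untreated cells. The fibroblast list, most abundant in Col3a1, was at 530 and 257 CPM, and the T and NK list, most abundant in Nkg7, at 64.3 and 17.4 CPM, with 31 of its 49 untreated UMIs in 1 cell. The part of these cells in the lower values was not tested. Kcnj2, a potassium channel, was 8.47-fold lower and was at 0.0659 and 0.213 CPM in remaining non-immune cells. Nes, an intermediate filament gene chosen after its value was seen, was 5.30-fold lower.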

How the data were processed

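The deposited values are UMI counts of each gene in each barcode, not normalized, which the authors made from 10x Chromium 3′ libraries with Cell Ranger on mm10. The version is 7.0.1 in the file headers and 7.0.0 in the submitters' processing notes, which also name Seurat 4.3.0; the study's methods name other versions of both tools. The barcodes, 14386 untreated and 14617 MSA-2, equal the cell counts of the methods, which describe the cells as sorted and call them immune cells.

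Barcodes with at least 500 genes and at most 20% mt- UMIs were kept (14039 and 13963). UMIs of gated cells were summed per library and scaled to CPM, and a gene with no UMI in 1 library was set to 3 counts. Doublets stayed in. Scrublet in scanpy 1.11.5, at 0.8% per 1000 barcodes, marked 4 untreated and 2 MSA-2 endothelial cells, whose removal was an alternative. Thinning used seed 1, and 1 untreated cell under 1500 UMIs was left out. The Krt8/Krt18 comparison gate found no cell, and remaining non-immune cells took its place. Python 3.11.15, numpy 2.4.6, scipy 1.17.1, pandas 2.3.3, matplotlib 3.10.9, R 4.3.3 and edgeR 4.0.16 (TMM factors) were used, and ratios were tested on simulated data. The simulation drew counts for gene sums and not for single cells, so it does not cover UMIs that cluster in 1 cell.

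Named genes were the largest or most abundant of 36 lists, the 10 highest and 10 lowest ratios, the 10 genes leading over other cells, and genes that the paper names; others are said to be chosen after their values were seen. The members and lists were chosen with earlier results of these data known.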

Additional observations from a re-analysis of the deposited data

How the results depend on the processing

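The direction of the interferon-stimulated, chemokine and tip cell medians was kept under all alternatives tried. Over cells with no UMI of the fibroblast and immune genes, however, the tip cell value is that of Esm1 alone. The chemokine value over those cells does not test the direction, because no member could reach 20 UMIs from untreated cells alone. The interferon-stimulated median ran from 1.54 to 2.21 and the tip cell median from -2.09 to -1.29. The value of 2.21 is that of the cells with no UMI of the fibroblast and immune genes. Only 26 of the 46 genes were measured there, and the filter favored genes high in MSA-2 cells, so it adds no support. The adhesion median ran from -0.05 to 0.40 and the MHC class I median from -0.08 to 0.46, so neither has a firm sign. Of 89 named genes at least 2-fold apart, 19 came under 2-fold in at least 1 alternative.

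Cells with no UMI of the fibroblast and immune genes numbered 5 and 8. Over them, 127 genes were at least 2-fold higher and 90 lower, since fewer genes had 20 UMIs. The medians were 2.21 for interferon-stimulated genes and 4.33 for chemokines. The interferon-stimulated list had 213 untreated and 1906 MSA-2 UMIs there, and 26 of its 46 genes were measured. The filter thus favored genes that were high in MSA-2 cells. The whole chemokine list had 19 untreated and 769 MSA-2 UMIs, so each measured member needed MSA-2 UMIs to pass the filter. The cytokine median (Kitl alone) reversed to -2.43, as did Tnfaip3 to -0.40. With at least 50 UMIs per gene, 243 were higher and 224 lower, and with at least 10 UMIs 932 were lower, as fewer or more genes were tested. With 10 CPM added, 262 were higher and 226 lower. Without the ceilings the identity median was -0.70; the cause was not tested. The log2 ratio of endothelial shares was 0.22 and became 0.85 when cells were gated after thinning. Per remaining non-immune cell, chosen after seeing the data, it was 1.05, against 0.013 over all non-immune cells. Remaining non-immune cells leave out those over the ceiling for Col1a2 and Dcn and numbered 5484 and 3058, while all non-immune cells numbered 7232 and 8277. The causes were not tested. Thinned cells with at least 2 arterial genes were 11 of 57 in untreated and 2 of 67 in MSA-2 cells. The log2 ratio of these shares was -2.69 (interval -5.91 to -0.50). With 1 gene fewer in the gate it was -0.056. Without thinning it was -0.60 (interval -1.31 to 0.10). Shares per Krt8/Krt18 cell could not be computed, as no such cell was found. No paired analysis was possible because each condition has 1 library.

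Depth limits single genes: a count of 0 allows up to 3.94 and 3.48 CPM.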

Other observations

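Some genes were more abundant in MSA-2 endothelial cells than in the remaining non-immune, collagen-high and C1q macrophage-gate cells, and were chosen after their values were seen. Plscr2, of the phospholipid scramblase family, stood at 27.6 in untreated and 249 CPM in MSA-2 endothelial cells, with UMIs in 16 of 58 and 57 of 67 cells. In MSA-2 tumors it was at 18.7 CPM in remaining non-immune cells, 85.2 CPM in collagen-high cells and 9.77 CPM in C1q macrophage-gate cells. Krt20, a keratin of intestinal epithelium, had 2 UMIs in untreated and 19 in MSA-2 endothelial cells, spread over 13 MSA-2 cells, and 0 UMIs in the remaining non-immune cells of MSA-2 tumors. Hdc, the histamine-forming enzyme, which is also a member of the neutrophil list, had 3 and 65 UMIs and in MSA-2 tumors was 5.37 times as abundant in endothelial as in remaining non-immune cells. After thinning, Hdc was detected in 8 of 67 MSA-2 endothelial cells and in 2% of remaining non-immune cells of MSA-2 tumors. Neutrophils were not gated, and the part of neutrophil RNA in the Hdc values was not tested.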
